A study of Mus musculus with 44 samples.

Results

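The genes described here are 43 transcripts of the cell cycle and of DNA replication, taken by name from the 27350 genes that were measured in mouse lungs in at least 1 of 2 tables, and all 43 were present in both tables (24150 genes in a subcutaneous tumour model and 26940 in an intratracheal one). They comprised 9 mitotic kinases and checkpoint genes, 6 cyclins, 12 genes of the spindle, chromosomes and cytokinesis, 8 genes that license replication origins, 6 genes of DNA synthesis and nucleotide supply, and the transcription factors Foxm1 and E2f1. The study asked how a Timp2 mutation and daily recombinant TIMP2, a secreted inhibitor of matrix metalloproteinases, bear on tumours in the lung. It sequenced polyA-selected RNA from 44 lung pieces of about 3 mm3, all from C57BL6j mice.

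In the intratracheal model, LL/2-Luc2 cells were instilled into the airways; this line derives from Lewis lung carcinoma and carries luciferase as a reporter. Its 6 groups of 5 lungs were wild type (WT) tumour-free, WT with tumour cells and HBSS, WT with tumour cells and rTIMP2, and the same 3 for mice labelled mutant Timp2 (MT2). HBSS was the control treatment. rTIMP2 was recombinant human TIMP2 given at 200 µg per kg per day into the peritoneum. In the subcutaneous model, all 14 mice were wild type and carried the tumour cells under the skin of the flank, and their lungs, labelled early metastatic, came from 5 mice on HBSS, 5 given rTIMP2 from day 0 and 4 given it from day 7. The tumour-free lungs carry the cell-line label as well. Sex and age of the mice, and the day of collection, are not stated in the labels.

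Cells enter DNA synthesis when cyclins of the G1 phase activate kinases that release E2F factors from the RB protein, and E2F then drives genes of replication. The MCM proteins, loaded with the help of Cdc6 and Cdt1, license origins and later unwind DNA. In mitosis Cdk1 with B-type cyclins, Plk1 and the Aurora kinases build the spindle, and Cdc20 and Ube2c serve the anaphase-promoting complex, the ubiquitin ligase that degrades the cyclins again. In the healthy adult lung few cells divide, so these transcripts are used as marks of proliferation.

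Promoter letters are shown because the genes divide by role in what their promoters hold. RefSeq promoter windows (GRCm38.p6, 250 bases before to 50 bases after a start) were found for 35 of the 43 genes. The CCAAT box (CCAAT, either strand) was in 27 of these 35 genes (77.1%) against 37.4% of all 32851 windows. A gene was counted if any of its windows matched, while the background is a share of single windows. The shares are therefore unlike measures, here and for the motifs below. The cell cycle homology region (CHR, searched as TTTGAA on either strand) was in 17 of 35 (48.6%) against 17.9%, and in 7 of 8 mitotic kinase and checkpoint genes, 8 of 10 spindle genes and 1 of 7 licensing genes. An E2F word (TTTGGCGC, TTTCCCGC, TTTGCCGC or TTTCGCGC, either strand) was in 9 of 35 (25.7%) against 2.26%, of which 6 were licensing genes. These matches are descriptions of letters, not of binding. The 250 bases before the start of 3 mitotic genes and 2 licensing genes follow, 5′ to 3′ on the gene's strand, with every match to one of the motifs in capitals.
Cdk1: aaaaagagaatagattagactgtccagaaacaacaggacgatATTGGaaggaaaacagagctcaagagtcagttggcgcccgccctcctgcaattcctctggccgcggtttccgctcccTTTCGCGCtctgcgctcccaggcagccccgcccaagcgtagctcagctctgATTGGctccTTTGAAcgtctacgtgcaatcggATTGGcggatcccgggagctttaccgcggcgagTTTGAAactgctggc
Cdc20: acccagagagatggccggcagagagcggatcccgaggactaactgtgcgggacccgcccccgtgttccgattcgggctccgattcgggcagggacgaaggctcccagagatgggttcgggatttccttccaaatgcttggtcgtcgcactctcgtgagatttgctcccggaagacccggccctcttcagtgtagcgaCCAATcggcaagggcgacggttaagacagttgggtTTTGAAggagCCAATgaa
Ube2c: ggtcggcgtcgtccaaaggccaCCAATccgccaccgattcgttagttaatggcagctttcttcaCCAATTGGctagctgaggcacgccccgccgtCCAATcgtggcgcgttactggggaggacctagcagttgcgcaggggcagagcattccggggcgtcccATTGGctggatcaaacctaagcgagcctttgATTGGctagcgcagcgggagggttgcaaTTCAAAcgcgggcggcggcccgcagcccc
Mcm5: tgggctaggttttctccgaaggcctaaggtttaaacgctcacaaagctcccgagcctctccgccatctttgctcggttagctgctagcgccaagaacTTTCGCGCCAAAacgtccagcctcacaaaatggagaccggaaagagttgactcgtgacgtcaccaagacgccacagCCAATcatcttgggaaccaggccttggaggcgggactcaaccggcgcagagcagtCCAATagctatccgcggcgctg
Mcm6: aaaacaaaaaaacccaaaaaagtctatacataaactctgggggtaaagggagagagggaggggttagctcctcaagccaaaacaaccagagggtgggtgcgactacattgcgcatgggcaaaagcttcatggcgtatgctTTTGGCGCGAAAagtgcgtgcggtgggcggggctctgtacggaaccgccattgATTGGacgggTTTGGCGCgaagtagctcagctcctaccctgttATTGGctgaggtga
Cdk1 (chr10:69352913-69353162, minus strand) held 3 CCAAT boxes, 2 CHR words and 1 E2F word. Cdc20 (chr4:118437344-118437593, minus strand) held 2 CCAAT boxes and 1 CHR word. Ube2c (chr2:164769679-164769928, plus strand) held 6 CCAAT boxes and 1 CHR word. Mcm5 (chr8:75109259-75109508, plus strand) and Mcm6 (chr1:128359706-128359955, minus strand) each held 2 CCAAT boxes and no CHR word, with 2 E2F words that overlap in Mcm5 and 3 in Mcm6, of which 2 overlap.

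Values are normalized counts as the authors deposited them. Estimated depth was 10.7 to 17.1 M (mega) reads per intratracheal library and 14.9 to 19.4 M per subcutaneous one. The estimate is the library total divided by its most frequent low value, and is rough, since not all low values were whole multiples of it. Several intratracheal libraries stood apart. Reporter values were 0 in the 10 tumour-free lungs, 39.3 to 69.2 in WT HBSS and 47.6 to 70.9 in MT2 HBSS lungs, but 0 in WT rTIMP2 replicates 2, 3 and 5 and 0.983 in MT2 rTIMP2 replicate 2. The tumour-free lungs came with sample numbers of another range than all 20 lungs given tumour cells. They also differed in the Y-linked Ddx3y, which was 0.91 to 5.78 in tumour-free lungs, 209 to 672 in WT HBSS, 123 to 525 in MT2 HBSS, 633 to 1321 in WT rTIMP2 and 234 to 1265 in MT2 rTIMP2 lungs. The X-linked Xist was 4118 to 6657 in tumour-free, 2399 to 6691 in WT HBSS and 1153 to 8305 in MT2 HBSS lungs. It was only 42.2, 92.4 and 54.5 in WT rTIMP2 replicates 2, 3 and 5 and 119 in MT2 rTIMP2 replicate 2. A difference that goes with sample numbers or sex-linked transcripts therefore cannot be told apart from tumour or treatment in any comparison with tumour-free lungs. In MT2 HBSS replicate 5 long transcripts were low: its genes over 9 kb sat at a median log2 of -1.17 and those under 1 kb at 0.67 relative to the WT HBSS median. These libraries touch the results below, and values without them are given there. The labels do not state separate animals for all samples, so p-values measure the spread between these samples, part of which may be technical.

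In tumour-free WT lungs most of the 43 genes were low, and 2 stood above the rest. Per kilobase of transcript, the level was 1033 for Ccnd1 (cyclin D1, which opens the G1 phase) and 591 for Pcna, the sliding clamp of DNA polymerases. Mcm7 and Mcm3 followed at 118 and 111 per kb. The lowest levels per kb were those of Cenpf at 4.90 and Cenpe at 4.57, both kinetochore proteins, and of the checkpoint kinase Ttk at 2.77. By role, the median level per kb was 88.1 for licensing genes, 39.3 for DNA synthesis, 17.6 for mitotic kinases and 15.2 for spindle genes. With tumour and HBSS the order at the top changed little, with Pcna at 1156 and Ccnd1 at 1141 per kb, but mitotic genes had come closer, at a role median of 233 per kb against 297 for licensing genes.

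WT lungs with tumour and HBSS were compared with WT tumour-free lungs to see what the tumour added. The groups also differ in the range of their sample numbers and in Ddx3y. Of the 43 genes, 42 rose and none fell, and all 42 had values that did not overlap between the groups. Over all 16967 genes tested, 32.8% were called higher and 37.7% lower, and 26% did not overlap upward. The median log2 fold change of the 43 genes was 3.18, against -0.07 over all genes. Rises were larger for mitotic genes than for replication genes: the role medians were 3.63 for mitotic kinases, 3.57 for spindle genes and 3.51 for cyclins, and 2.57 for DNA synthesis, 2.24 for the 2 transcription factors and 1.89 for licensing.

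Cdk1, the kinase that drives entry into mitosis (10:69335146-69352938 on mm10), was 51.0, 26.2, 36.4, 60.4 and 55.0 in the 5 WT tumour-free lungs and 508, 1238, 1038, 1023 and 1286 in the WT HBSS lungs. The lowest tumour lung was thus far above the highest tumour-free one, and the log2 fold change was 4.44 ± 0.29 (SE, limma adjusted p = 8.4e-07), or 21.6-fold. Its partner Ccnb1 (cyclin B1) rose by 4.36 ± 0.29 (adjusted p = 8.7e-07) and the Aurora B kinase Aurkb by 4.27 ± 0.28 (adjusted p = 8.8e-07). Ube2c, which hands ubiquitin to the anaphase-promoting complex, rose by 4.07 ± 0.23 (adjusted p = 4.6e-07). Among the kinetochore motors and proteins Cenpe rose by 4.04 and Cenpf by 3.81.

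Mki67, the Ki-67 antigen used to count dividing cells, was 249, 155, 156, 290 and 268 in WT tumour-free lungs and 1268, 1301, 2133, 2559 and 3256 in WT HBSS lungs. Every tumour lung exceeded every tumour-free one, and the rise was 3.18 ± 0.29 (adjusted p = 8.0e-06). Among replication genes Mcm5 went from 136 to 231 in tumour-free lungs to 701 to 1325 with tumour, a rise of 2.35 ± 0.20 (adjusted p = 4.1e-06). Uhrf1, which carries DNA methylation through replication, rose by 3.59 ± 0.15 (adjusted p = 1.1e-07), and Rrm2, the regulated subunit of ribonucleotide reductase, by 3.13 ± 0.24. The smallest rises were those of Pcna at 0.96 ± 0.083 (adjusted p = 4.5e-06) and of E2f1 and Mcm4, at 1.29 each. Ccnd1 was the 1 gene not called.

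**Figure D1:**
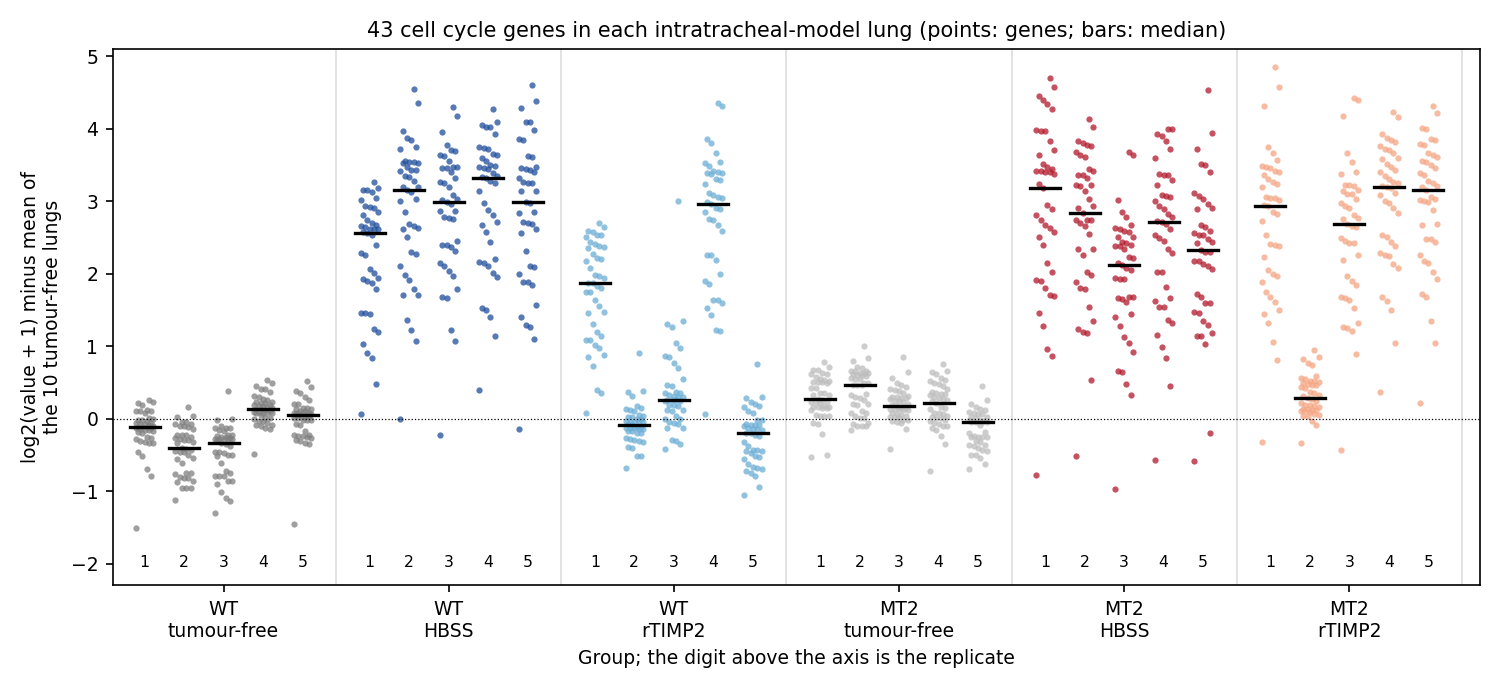
Each point is 1 of the 43 genes in 1 intratracheal lung, as log2(value + 1) minus the gene's mean over the 10 tumour-free lungs, and the bar is the median over genes. The 5 WT HBSS lungs have medians of 2.57 to 3.33, while WT rTIMP2 replicates 2, 3 and 5 (-0.09, 0.26 and -0.19) and MT2 rTIMP2 replicate 2 (0.28) sit beside the tumour-free lungs.

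Markers of resident lung cells were lower in the same tumour lungs. The summed level of 6 lung epithelium markers, all 6 called lower, was 596513 to 668754 in WT tumour-free and 31481 to 286681 in WT HBSS lungs. That of 5 endothelium markers, all 5 called lower, was 45560 to 51405 and 3048 to 15563. Macrophage markers, of which 3 of 7 were called higher and 1 lower, summed to 4158 to 5123 and 7768 to 14143. No marker of these lists was listed at 0 in all lungs. In bulk tissue more dividing cells and more RNA per cell cannot be told apart, and the part of a changed mixture of cells in the rises was not tested.

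The same comparison in MT2 mice had 42 genes higher and 1 lower among 43, against a background of 31.5% higher and 35.9% lower among 16999 genes. The range of sample numbers and Ddx3y differ between these groups too. The median log2 fold change was 2.41, against -0.05 over all genes. Cdk1 was 41.3 to 73.5 in MT2 tumour-free lungs and 1371, 736, 680, 848 and 1225 in MT2 HBSS lungs, with no overlap, and rose by 3.91 ± 0.23 (adjusted p = 2.1e-07), or 15.0-fold. Ccnb1 rose by 3.70 ± 0.25 and Ccnb2 (cyclin B2) by 3.50 ± 0.27 (adjusted p = 4.1e-07 and 1.0e-06). The role medians ran from 2.94 for cyclins, 2.57 for spindle genes and 2.44 for mitotic kinases down to 1.94 for DNA synthesis and 1.72 for licensing. Pcna (0.90 ± 0.22, adjusted p = 0.0031) and E2f1 (1.04 ± 0.16, adjusted p = 0.00015) again had small rises.

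Mki67 was the only one of the 42 whose groups overlapped (26.6% of all genes did not overlap upward in this comparison). It was 373, 415, 319, 351 and 194 in MT2 tumour-free lungs and 2795, 2324, 1166, 1810 and 230 in MT2 HBSS lungs. The low value was that of replicate 5, whose Cdk1 of 1225 was the second highest of its group. The ratio of Mki67 to Cdk1 was 0.19 there, 1.71 to 3.16 in the other 4 MT2 HBSS lungs and 1.05 to 2.53 in the WT HBSS lungs.

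Replicate 5 was the lowest lung of its group for 9 of the 43 genes, namely Mki67, Cenpe, Cenpf, Plk1, Bub1b, Kif23, Tpx2, Anln and Foxm1. It was the highest for 6, namely Ccne1, Ccne2, Mcm7, Pcna, Tyms and Cdca7. The shares over all genes are not given here, so these counts by themselves do not set the lung apart. The 3 genes with transcripts over 6 kb (Cenpf at 11.1, Mki67 at 10.1 and Cenpe at 7.91 kb) had a median log2 of -2.27 relative to the WT HBSS median in this lung, and the 18 genes under 3 kb had -0.27. Across the 43 genes, the Pearson correlation of this deviation with log2 transcript length was -0.67 in replicate 5, against 0.07 to 0.37 in the other 4 lungs of the group. Of the other tumour lungs, MT2 rTIMP2 replicates 1 and 3 had -0.38 each, and WT rTIMP2 replicate 4 and WT HBSS replicate 2 had -0.36 each. In those 4 lungs the genes over 6 kb had medians lower than the genes under 3 kb, with differences of -1.05, -0.86, -0.73 and -0.57. Such differences were not particular to them. WT rTIMP2 replicate 3 had -0.89, MT2 tumour-free replicate 5 -0.80 and the WT tumour-free lungs -0.29 to -0.54. The difference was above 0 in MT2 HBSS replicates 1 to 4 (0.01 to 0.42) and in MT2 tumour-free replicates 1, 2 and 4 (0.10 to 0.33). Genes share a library and are not replicates, so this is a description. Without replicate 5 the log2 rises were 2.58 for Mki67 in place of 1.97 ± 0.57, 3.03 for Cenpf in place of 2.60, and 3.54 for Cenpe in place of 3.12. Subtracting the median of each length class from each library, a step chosen after seeing the data, gave 2.73, 3.36 and 3.70.

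**Figure D2:**
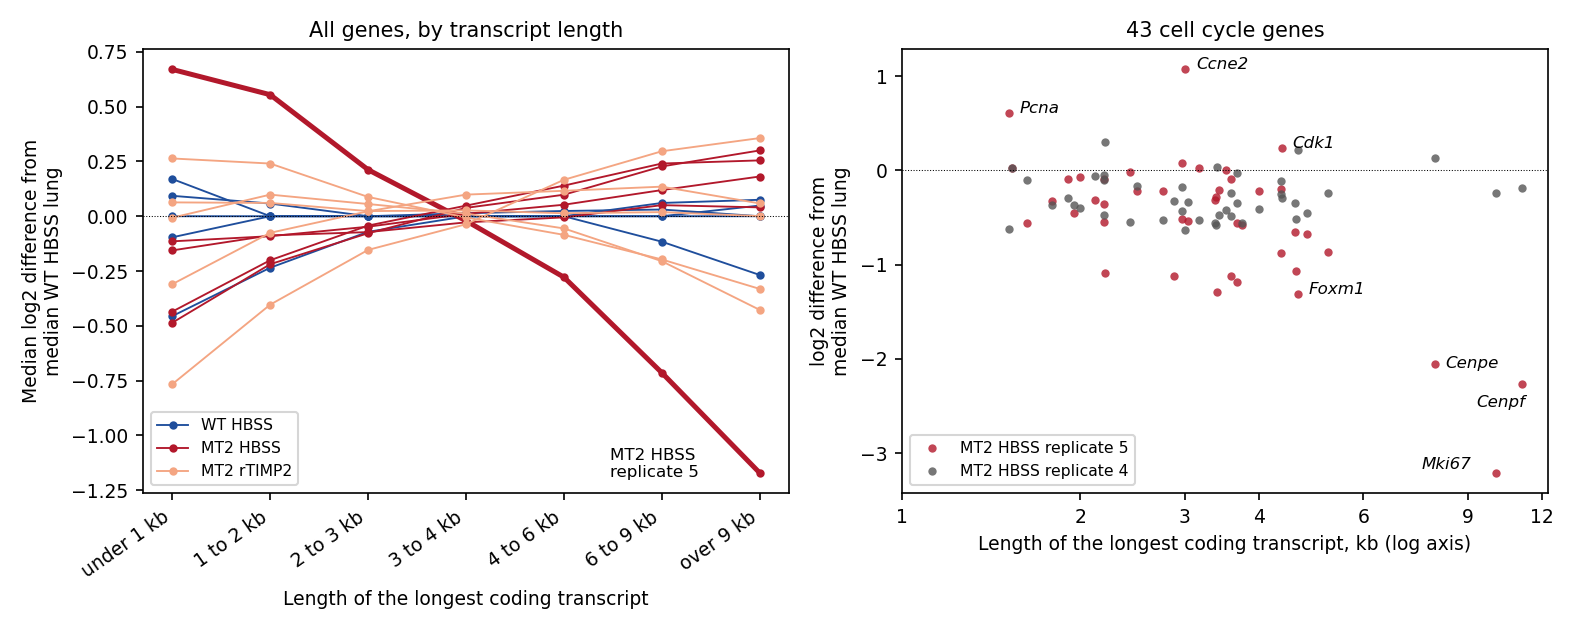
Left, median log2 deviation from the WT HBSS median of all genes in 7 classes of transcript length for WT HBSS, MT2 HBSS and MT2 rTIMP2 lungs; right, the deviation of the 43 genes against transcript length in kb (log axis) in MT2 HBSS replicates 5 and 4. In replicate 5 the 3 genes over 6 kb have a median of -2.27, while in replicate 4 they have -0.19.

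Ccne2 (cyclin E2, which pairs with Cdk2 at the start of DNA synthesis, and whose exons share 609 bases with Ints8 on the other strand) differed widely between lungs of a group. It was 166, 485, 239, 168 and 115 in WT HBSS lungs, and 78.4, 110, 118, 108 and 354 in MT2 HBSS lungs. The WT HBSS lung with the highest Ccne2, replicate 2, and the MT2 one, replicate 5, were also the lungs of their groups with the lowest ratio of Mki67 to Cdk1 (1.05 and 0.19). The same held for WT rTIMP2 replicate 4 (Ccne2 555, ratio 0.97) and MT2 rTIMP2 replicate 1 (Ccne2 553, ratio 0.70). All these lungs were named above for genes over 6 kb that lay below those under 3 kb. So was WT rTIMP2 replicate 3, where Ccne2 was only 85.0. Tyms was highest in WT HBSS replicate 2, MT2 HBSS replicate 5 and WT rTIMP2 replicate 4 (441, 316 and 419), but in replicate 3 of MT2 rTIMP2 (488). The log2 rise of Ccne2 with tumour was 2.35 ± 0.35 in WT and 1.50 ± 0.38 in MT2 lungs (adjusted p = 0.00014 and 0.0042).

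Ccnd1 stood apart from the other 42 genes. On mm10 it lies at 7:144929931-144939925 on the minus strand and its exons share 1100 bases with LTO1 on the other strand. The labels do not state the strand used in counting, so reads within these shared bases cannot be assigned to either gene. The same holds for the bases that Ccna2 shares with Exosc9, Ube2c with Tnnc2 and Kif20a with Cdc23. Ccnd1 was 3906, 3296, 3500, 4206 and 4399 in WT tumour-free lungs and 4361, 4144, 3558, 5478 and 3793 in WT HBSS lungs, which overlapped (log2 0.14 ± 0.13, adjusted p = 0.38). It was 4630, 4204, 4774, 4399 and 4668 in MT2 tumour-free lungs and 2423, 2928, 2123, 2807 and 2779 in MT2 HBSS lungs. All 5 MT2 tumour lungs were below all MT2 tumour-free ones, and Ccnd1 fell by 0.80 ± 0.12 on the log2 scale (adjusted p = 0.00012), where 31.4% of all genes did not overlap downward.

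The MT2 HBSS lungs were also below all 5 WT HBSS lungs in Ccnd1 (log2 -0.70 ± 0.17, unadjusted p = 0.0012, adjusted p = 0.42), where 0.81% of genes did not overlap downward. That difference was not called when these 2 groups alone were fitted and was called when all 6 groups shared 1 estimate of the spread (adjusted p = 0.032). The interaction, which asks whether the tumour effect differed between genotypes, was -0.94 ± 0.18 for Ccnd1 (adjusted p = 0.093). It passed the threshold without MT2 HBSS replicate 4 or 5, without WT HBSS replicate 3 or 5, and after length-class centring. In the rTIMP2 groups Ccnd1 was 4422, 4223, 3109, 4371 and 5144 in WT and 3346, 3300, 3086, 5394 and 4864 in MT2 mice. Each MT2 rTIMP2 lung was above every MT2 HBSS lung (log2 0.59 ± 0.21, adjusted p = 0.49; 1.11% of all genes did not overlap upward), and this difference too was called only in the fit of all 6 groups. By group mean the order was MT2 tumour-free (4535 ± 230, SD, n = 5), WT HBSS (4267 ± 745), WT rTIMP2 (4254 ± 732), MT2 rTIMP2 (3998 ± 1054), WT tumour-free (3862 ± 464) and MT2 HBSS (2612 ± 332). Neighbours among the upper 5 overlapped.

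**Figure D3:**
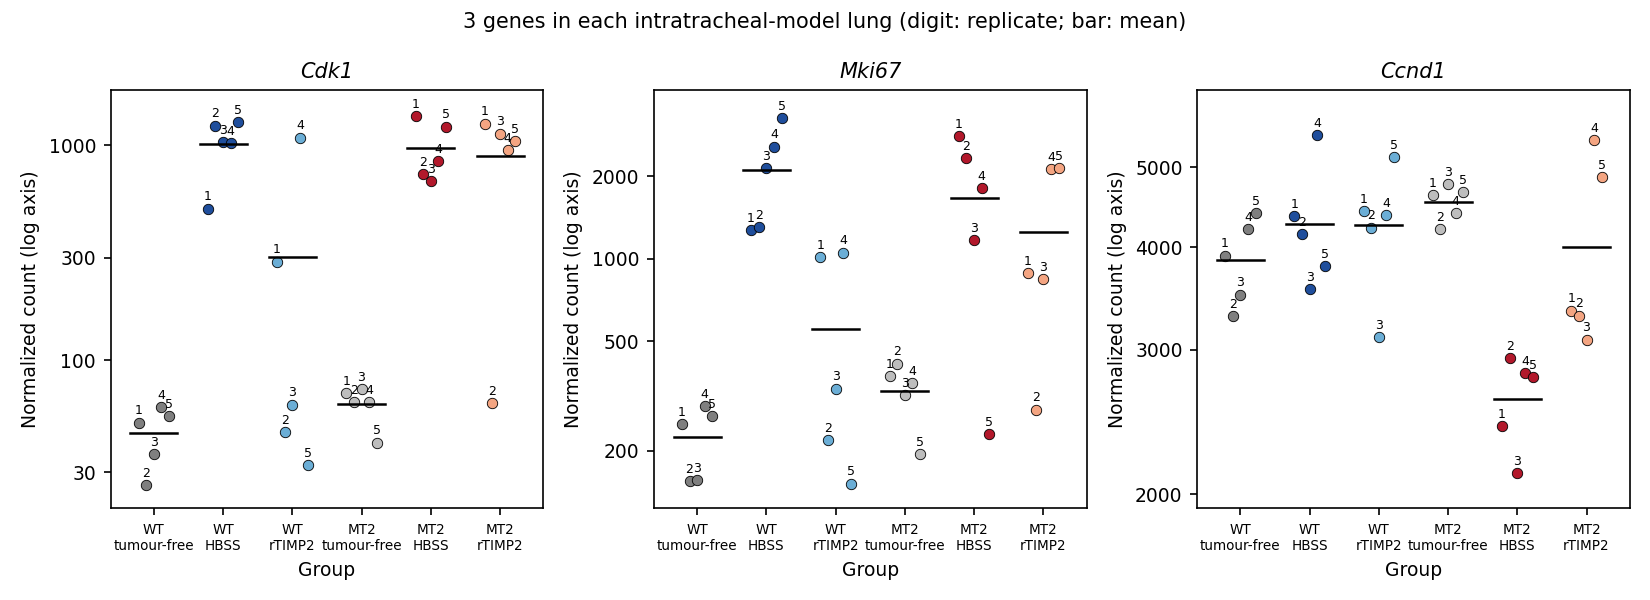
Normalized counts (log axis) of Cdk1, Mki67 and Ccnd1 in each of the 30 intratracheal lungs by group; the bar is the group mean. Cdk1 separates HBSS tumour lungs (508 to 1371) from tumour-free lungs (26.2 to 73.5), Mki67 does so but for MT2 HBSS replicate 5 (230), and Ccnd1 is lowest in MT2 HBSS lungs (2123 to 2928).

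Genotype was compared without tumour first. None of the 43 genes was called between MT2 and WT tumour-free lungs by limma (lowest adjusted p 0.12), where 4 of 16774 genes (0.0238%) were called. At an unadjusted p under 0.05, 20 of the 43 were higher in MT2 and 1, Pcna, was lower, where 5.07% of all genes were higher and 4.67% lower. In all, 39 of the 43 had a log2 fold change above 0 (49.9% of all genes had), and the median was 0.39, against 0.00 over all genes. It was 0.25 without WT tumour-free replicate 3. Tyms (0.00), Rrm1 (-0.02) and Mcm7 (0.03) differed least. The differences followed the roles: 8 of 9 mitotic kinase and checkpoint genes and 9 of 12 spindle genes were among the 20, but none of 8 licensing genes and none of 6 DNA synthesis genes. The role medians were 0.57 and 0.55 for the former, and 0.07 and 0.03 for the latter.

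Kif22, a motor that moves chromosomes on the spindle, was 28.9, 27.1, 18.2, 39.0 and 31.6 in WT and 59.7, 60.9, 55.3, 61.9 and 46.0 in MT2 tumour-free lungs. Anln (anillin, of the cleavage furrow) was 96.3 to 111 in WT and 118 to 178 in MT2 lungs. The 2 genes did not overlap between genotypes (0.93% of all genes did not overlap upward), with log2 values of 0.98 ± 0.19 (adjusted p = 0.12) and 0.48 ± 0.11 (adjusted p = 0.28). Pcna did not overlap in the other direction, at 842 to 953 in WT and 729 to 836 in MT2 lungs (log2 -0.16 ± 0.056, adjusted p = 0.41; 0.811% of genes). Aurkb (1.00 ± 0.24) and Ttk (1.02 ± 0.38) had the largest values, from low counts. MT2 replicate 5 was the lowest MT2 lung, at a median of -0.05, beside 0.17 to 0.47 for the other 4 and -0.41 to 0.14 for the WT lungs. All 10 lungs had high Xist (4118 to 6657) and low Ddx3y.

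With tumour and HBSS, most estimates of the genotype difference were below 0. None of the 43 genes was called by limma between MT2 and WT HBSS lungs, nor was any of 16299 genes (0%). No gene was higher and 3 were lower in MT2 at an unadjusted p under 0.05 (Ccnd1, Cdc6 and Rrm2), where 3.05% of all genes were higher and 4.36% lower, and 3 of 43 had a value above 0 (46% of all genes had). The median was -0.26, against -0.03 over all genes, and ran from -0.40 without MT2 HBSS replicate 1 or WT HBSS replicate 1 to -0.14 without MT2 HBSS replicate 3. Cdc6, a loader of the MCM ring, had -0.70 ± 0.27 (adjusted p = 0.57) and Ccne2 -0.65 ± 0.45 (adjusted p = 0.79). Ccnb1 (0.01 ± 0.25), Mcm6 (-0.01), Kif22 (-0.02) and Cdk1 (-0.05 ± 0.28) were near 0. In the interaction of genotype with tumour all 43 estimates were below 0 (44% of all genes were above 0), at a median of -0.68 against -0.06 over all genes, and none was called by limma, where 0.0223% of genes were. With an unadjusted p under 0.05, 15 were lower (6.04% of all genes), among them Aurkb (-1.20) and Anln (-0.78 ± 0.18, adjusted p = 0.16). The estimate furthest from 0 was that of Ttk (-1.35 ± 0.52, adjusted p = 0.37), followed by Mki67 (-1.21 ± 0.69) and Cenpf (-1.21 ± 0.59), and those nearest to 0 were Pcna (-0.06), Mcm6 (-0.08) and Cdt1 (-0.14). Without MT2 HBSS replicate 5, the lung with low long transcripts, Mki67 had -0.60 and Cenpf -0.78. Since the interaction contains the tumour-free lungs, it moves with their genotype difference.

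rTIMP2 was compared with HBSS in tumour-bearing WT mice to ask what the treatment did. Of the 43 genes, 36 fell and none rose, where 11.3% of 16908 genes were called lower and 16% higher. All 43 estimates were below 0 (51.7% of all genes were above 0), at a median of -1.96 against 0.03 over all genes. The largest falls were those of the mitotic engine: Cdk1 fell by 2.95 ± 0.85 (adjusted p = 0.040), Ccnb1 by 2.72 ± 0.85 (adjusted p = 0.043) and Plk1, the Polo kinase of mitotic entry, by 2.69 ± 0.71 (adjusted p = 0.040). By role 8 of 9 mitotic kinase genes, 11 of 12 spindle genes, 7 of 8 licensing genes, 4 of 6 cyclins, 4 of 6 DNA synthesis genes and both transcription factors fell. The genes not called were Ccnd1 (-0.01 ± 0.18), Pcna (-0.61 ± 0.25, adjusted p = 0.082), Ccne2, Tyms, Mcm5, Kif11 and Bub1. The smallest fall was that of Mcm4 (0.88 ± 0.27).

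The adjusted p-values of the 36 genes lay between 0.040 and 0.049, and the calls did not outlast the loss of 1 lung. No gene was called when WT HBSS replicate 2, 3, 4 or 5 or WT rTIMP2 replicate 1, 2, 3 or 5 was left out. There were 40 calls without WT HBSS replicate 1 and 42 without WT rTIMP2 replicate 4. The shares of all genes called in those fits are not given here. The median log2 fold change stayed between -2.46 and -1.66 in these 10 fits. Only 5 genes (Kif23, Foxm1, Mki67, Cenpe and Cenpf) had no overlap between the groups, where 2.44% of all genes had none downward. Mki67, Cenpe and Cenpf are the genes with transcripts over 6 kb. In WT rTIMP2 replicate 4 the median of these minus that of the genes under 3 kb was -0.73. The part of transcript length in this separation was not tested.

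The treated WT lungs were not alike. Cdk1 was 287, 46.0, 61.9, 1086 and 32.4 in replicates 1 to 5, and Mki67 was 1011, 218, 336, 1051 and 151. Replicate 4 was a lung like those on HBSS, with 34 of 43 genes within the WT HBSS range. Replicates 2 and 5 had 32 and 29 genes within the WT tumour-free range, and replicate 3 had 15 within it and 26 above. Replicate 1 was between, with 43 genes above the tumour-free range and 41 below the HBSS range.

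The reporter divided these lungs in the same way. It was 23.3, 0, 0, 67.7 and 0 in replicates 1 to 5, and Hmga2, a transcript at 2212 to 4713 in WT HBSS and 9.52 to 27.8 in tumour-free lungs, was 1198, 23.5, 32.1, 2780 and 13.6. The epithelium marker sum ran from 139706 to 674909 in this group. Fewer tumour cells in a piece and less RNA of these genes per tumour cell cannot be told apart here. Ube2c stood furthest above the tumour-free range among the 26 genes that were above it in replicate 3. It was 308, 113, 486, 704 and 55.3, so that replicate 3 held 486 although its Cdk1 was 61.9. Its exons share 592 bases with Tnnc2, a skeletal muscle troponin, on the other strand.

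Against WT tumour-free lungs, the treated WT lungs had all 43 estimates above 0 (47.5% of all genes), at a median of 1.15 against -0.03 over all genes, and none was called by limma, where 0.208% of 16815 genes were. Replicates 1 and 4 were the high lungs, and without replicate 4 the median was 0.64. The unadjusted p was under 0.05 for 11 of them, all higher, where 6.17% of all genes were. The largest were Ube2c (2.24 ± 0.62, adjusted p = 0.16), Aurkb (1.95 ± 0.69) and Kif11 (1.76 ± 0.67), and the smallest Ccnd1 (0.13), E2f1 (0.18) and Pcna (0.36). This comparison shares its treated lungs with the one against HBSS, and its groups differ in the range of sample numbers and in sex-linked transcripts.

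In MT2 mice none of the 43 genes was called between rTIMP2 and HBSS by limma, nor was any of 16248 genes (0%). At an unadjusted p under 0.05, 1 gene, Ccnd1, was higher and none lower, where 6.15% and 3.45% of genes were. The median was -0.22, against 0.03 over all genes, with 10 of 43 estimates above 0 (52.4% of all genes). Cdk1 was 1263, 62.9, 1137, 949 and 1048 in MT2 rTIMP2 replicates 1 to 5, and Mki67 was 884, 282, 844, 2114 and 2133. Replicate 2 had 32 of 43 genes within the MT2 tumour-free range and 40 below the MT2 HBSS range, with a reporter of 0.983 and Hmga2 of 63.9. The other 4 were within or above the HBSS range for most genes, and replicates 4 and 5 exceeded it for 20 and 16. Without replicate 2 the median over the 43 genes was 0.36 in place of -0.22, and 39 of the 43 estimates were above 0. Leaving out any other lung gave medians of -0.41 (without MT2 rTIMP2 replicate 4) to -0.08 (without MT2 HBSS replicate 1). The largest estimates were Ccne2 at 1.03 ± 0.55 (adjusted p = 0.54), Cenpe at -0.63 ± 0.67 and Plk1 at -0.61 ± 0.64, and that of Plk1 went to 0.00039 without replicate 2. Mcm2 (-0.00), E2f1 (0.00) and Nusap1 (-0.07) had the smallest.

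Against MT2 tumour-free lungs, 42 of the 43 genes were higher in treated MT2 lungs, where 26.6% of 16754 genes were called higher. The median was 2.27, against -0.07 over all genes. Ccnb1 rose by 3.33 ± 0.71, Cdk1 by 3.32 ± 0.73 and Ccnb2 by 3.20 ± 0.62 (adjusted p = 0.0059, 0.0061 and 0.0058). Between these groups 10 of the 43 did not overlap (11.1% of all genes did not overlap upward), namely Pcna, Rrm1, Rrm2, Cdt1, Cdc6, Cdca7, Uhrf1, Ccne2, Ccnb2 and Tpx2. Of these, 7 belong to DNA synthesis and licensing. In replicate 2 Pcna was 948 against 729 to 836 in the MT2 tumour-free lungs, and Cdt1 138 against 105 to 129. Ccnd1 was not called (-0.22 ± 0.18, adjusted p = 0.30), and the smallest rises were those of Mcm4 (0.93) and E2f1 (1.05).

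The effect of rTIMP2 in MT2 was set against that in WT by their interaction. All 43 estimates were above 0 (51.1% of all genes), at a median of 1.76 against 0.02 over all genes, and none was called by limma (lowest adjusted p 0.67), nor was any of 17841 genes (0%). For 21 of 43 the unadjusted p was under 0.05, all higher, where 3.8% of all genes were. Cdk1 had 2.36 ± 1.19, Ccnb1 2.34 ± 1.15 and Rrm2 2.17 ± 0.78, and the lowest were Ccnd1 (0.59), Mcm4 (0.76) and Pcna (0.78). Between the treated groups themselves, 42 of 43 genes had higher estimates in MT2 (49.5% of all genes), at a median of 1.42, and none was called by limma (0% of all genes). Ccnb1 (2.36 ± 1.08), Cdk1 (2.31 ± 1.10) and Ccnb2 (2.24 ± 0.93) had the largest estimates, and Ccnd1 (-0.11), Pcna (0.55) and Mcm4 (0.63) the smallest. Of the 43, 7 were higher and none lower at an unadjusted p under 0.05, where 4.5% and 13.3% of all genes were. Without MT2 rTIMP2 replicate 2, 36 of the 43 were called higher, with Cdk1 at 3.13 (adjusted p = 0.028) and Ccnb1 at 3.12 (adjusted p = 0.029). That fit drops the MT2 lung with a reporter of 0.983 and keeps WT rTIMP2 replicates 2, 3 and 5, whose reporter was 0. The share of all genes called in it is not given here.

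**Figure D4:**
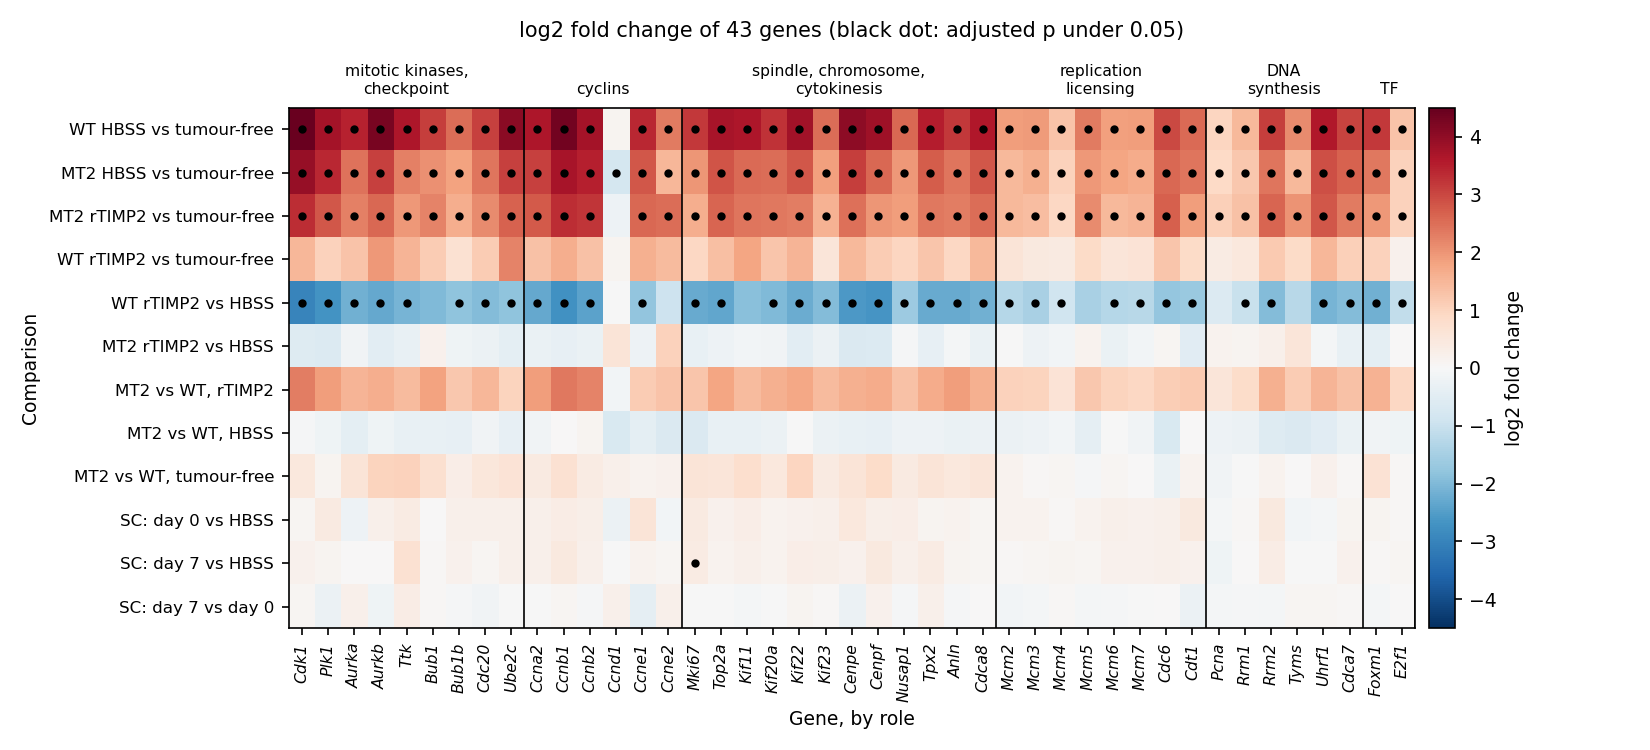
Log2 fold changes of the 43 genes (columns, by role) in 12 comparisons between groups (rows); a dot marks an adjusted p under 0.05. In the WT and MT2 HBSS against tumour-free rows nearly every gene is higher, with Ccnd1 as the exception, and in the WT rTIMP2 against HBSS row 36 genes are marked lower.

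In the subcutaneous model the reporter, listed as Luc2 here and as Luc in the intratracheal model, was 14.3 to 44.8. Hmga2 was 1.01 to 18.0. Cdk1 was 43.9 to 59.8 under HBSS. This table was normalized separately from the intratracheal one and has no tumour-free lungs, so its levels are not set against those above. The question was whether rTIMP2 changed these lungs. From day 0, none of the 43 genes was called by limma, where 8.1% of 17282 genes were (lowest adjusted p 0.055). At an unadjusted p under 0.05, 5 were higher and 1, Ccnd1, was lower. Both shares were below those of all genes, which were 12.9% and 13.1%. Of the 43 estimates 37 were above 0 (49.5% of all genes), at a median of 0.18 against -0.00 over all genes (0.12 without rTIMP2 from day 0 replicate 1).

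Cdt1, the MCM loader that is destroyed once origins fire, was 131, 137, 95.6, 115 and 118 under HBSS and 201, 155, 140, 146 and 168 under rTIMP2 from day 0. The groups did not overlap (4.44% of all genes did not overlap upward), at a log2 of 0.44 ± 0.13 (adjusted p = 0.055). Ccnd1 was 5016, 5166, 5170, 5504 and 5113 under HBSS and 3541, 4655, 4337, 5005 and 4478 under rTIMP2 from day 0, also without overlap (4.65% did not overlap downward), at -0.25 ± 0.090 (adjusted p = 0.090). Both were called when all 3 groups were fitted together. Ccne1 (0.58 ± 0.25), Cenpe (0.47 ± 0.19) and Rrm2 (0.45 ± 0.16) had the largest estimates and were not called. Bub1 (0.00), E2f1 (0.06) and Rrm1 (0.06) had the smallest. Replicates 1 and 4 were the highest, with 28 and 31 of the 43 genes above every HBSS lung, where replicates 2, 3 and 5 had 6, 5 and 15. The shares of all genes above every HBSS lung in each replicate are not given here, so these counts are descriptions. Replicate 1 also had the highest sums of mature neutrophil markers (45875, against 2657 to 8495 under HBSS), of granulocyte precursor markers (453, against 33.9 to 84.3) and of erythroid precursor markers (10094, against 1403 to 5099). The part of these cells in the values was not tested.

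From day 7, 1 of the 43 genes rose, a smaller share than the 4.46% of 17389 genes that were called higher (5.92% were called lower). This was Mki67, at 349, 416, 338, 393 and 347 under HBSS and 486, 499, 462 and 472 under rTIMP2. The groups did not overlap (6.49% of all genes did not overlap upward), and the log2 fold change was 0.38 ± 0.078 (adjusted p = 0.0090), or 1.30-fold. It was called whichever lung was left out, and not in the fit of all 3 groups (adjusted p = 0.19), where the wide spread of the day 0 group (348 to 765) entered. The Mki67 transcript is long, at 10.1 kb. Over all genes, the median deviation of those over 9 kb minus that of those under 1 kb differed between these groups. It was 0.24 to 0.40 on the log2 scale in the day 7 lungs and -0.17 to 0.07 in the HBSS lungs. The part of transcript length in the Mki67 rise was not tested. In all 39 of 43 estimates were above 0 (51.2% of all genes), at a median of 0.17 against 0.01 over all genes. Ttk (0.69 ± 0.31), Cenpf (0.45 ± 0.19) and Ccnb1 (0.44 ± 0.21) had the largest estimates, with adjusted p of 0.15 to 0.18, and Uhrf1 (-0.01), Aurkb (0.02) and Tyms (-0.02) the smallest. At an unadjusted p under 0.05 were 7 genes higher (12.8% of all genes) and 1 lower (14.1%), which was Pcna at -0.19 ± 0.065 (adjusted p = 0.078). Between the treatment starts none of the 43 was called by limma, where 0.235% of 17481 genes were. Ccnd1 alone had an unadjusted p under 0.05, higher from day 7 (7.37% of all genes), and the median was -0.01 (-0.08 to 0.05 with single lungs left out). Ccne1 (-0.41 ± 0.23), Ttk (0.33 ± 0.30) and Plk1 (-0.28 ± 0.19) had the largest estimates, and Mcm7, Ube2c and Kif20a were at -0.00 to -0.01. The 2 treated groups were both set against the same HBSS lungs.

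**Figure D5:**
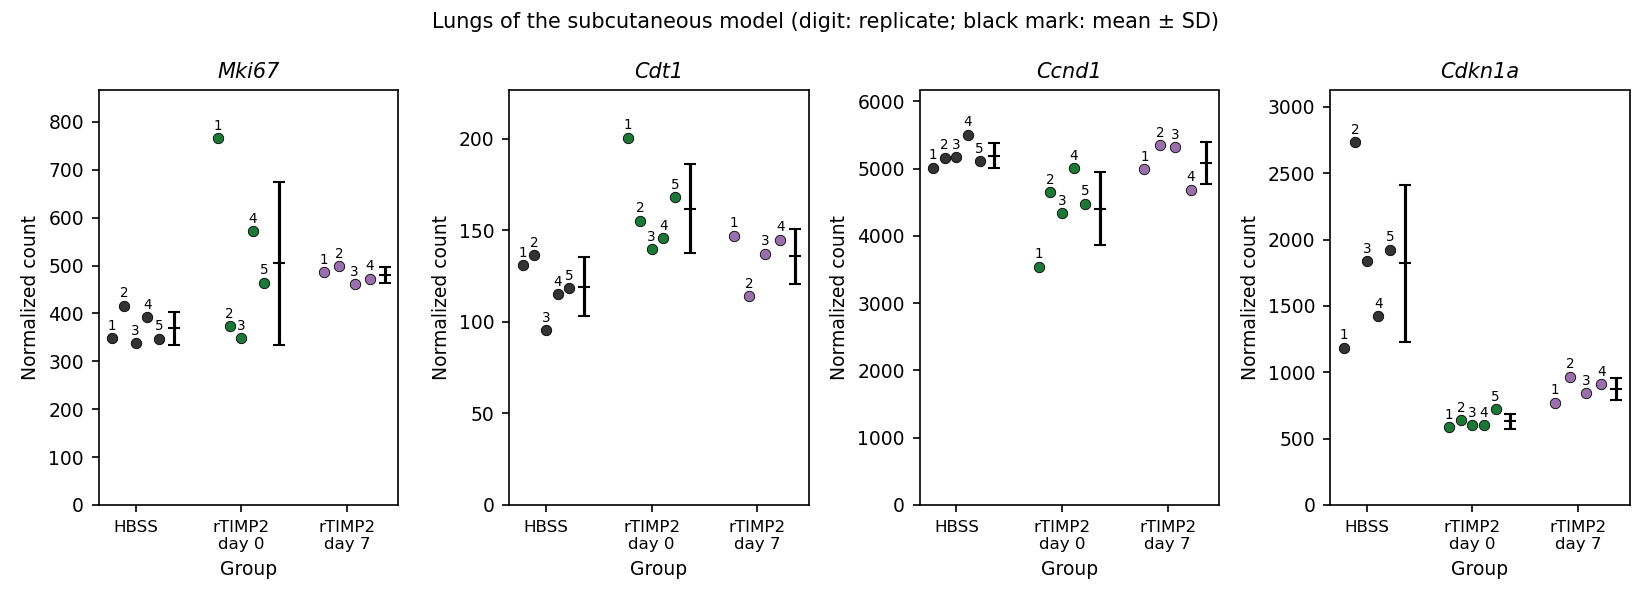
Normalized counts of Mki67, Cdt1, Ccnd1 and the CDK inhibitor Cdkn1a in the 14 subcutaneous lungs; points are lungs, and the bar and whiskers are the mean ± SD. Mki67 is higher from day 7 (462 to 499) than under HBSS (338 to 416), Cdt1 and Ccnd1 separate day 0 from HBSS, and Cdkn1a is lower in both treated groups.

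A further 115 cell cycle genes, in 7 lists, show what surrounded the 43. In WT HBSS against tumour-free lungs 87 of 114 tested rose and 14 fell (32.8% and 37.7% of all genes), at a median of 1.16. Origin firing factors and polymerases rose in 27 of 29 cases, and condensin, cohesin and kinetochore genes in 24 of 27, with 2 lower. The subunits of the anaphase-promoting complex and the spindle checkpoint were more mixed, with 12 higher and 2 lower of 19, as were RB, E2F and DREAM genes, with 12 higher and 5 lower of 19. Sgo1, the guardian of centromere cohesion, rose by 4.41 ± 0.23, Orc1, a subunit of the origin recognition complex, by 4.37 ± 0.43, and Birc5 (survivin) by 4.23 ± 0.27 (adjusted p = 2.8e-07, 1.1e-05 and 7.4e-07). E2f2 fell by 1.38 ± 0.22 (adjusted p = 0.00025). In MT2 mice 83 of 114 rose and 9 fell (31.5% and 35.9% of all genes). Cenph, of the kinetochore, rose most there, by 4.24, followed by Cdc25c, the phosphatase that activates Cdk1, by 4.07 and E2f8 by 3.94, and E2f2 fell by 1.53.

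In treated MT2 against tumour-free lungs 79 of 113 rose and 10 fell (26.6% and 32.7% of all genes), with Cenph at 3.90, Birc5 at 3.50 and Sgo1 at 3.35 highest and a fall of 1.29 for Rb1. In WT lungs rTIMP2 against HBSS had 51 of 115 lower and 7 higher (11.3% and 16% of all genes). E2f8 fell by 2.76 ± 0.75, Cenph by 2.73 and Cenpm by 2.65, and Tfdp2, a partner of E2F, rose by 1.15. As for the 43 genes, no gene of the whole table was called in 8 of the 10 fits that left out 1 lung of this comparison. In treated WT against tumour-free lungs 1 gene was called, Wee1, the kinase that holds Cdk1 inactive, which rose by 1.28 ± 0.14 (adjusted p = 0.0050; 0.097 with the replicate number as a block).

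CDK inhibitors, which brake the kinases, did not move as 1 group. In WT HBSS against tumour-free lungs, Cdkn2b fell by 2.85 ± 0.24 (adjusted p = 3.6e-06), Cdkn1c by 2.36 ± 0.36 (adjusted p = 0.00019) and Cdkn1b by 0.43 ± 0.18 (adjusted p = 0.047). Cdkn1a (p21, a target of p53) rose by 1.16 ± 0.17 (adjusted p = 0.00015) and Cdkn2d by 0.38 ± 0.15 (adjusted p = 0.038). With 1 lung left out, the Cdkn1b call was lost in 9 of 10 fits and the Cdkn2d call in 7 of 10, while the other 3 calls were lost in none. In MT2 mice Cdkn1c fell by 2.88 and Cdkn2b by 2.71, while Cdkn1a rose by 1.24 ± 0.39 (adjusted p = 0.015) and Cdkn2d by 0.57. In treated MT2 against tumour-free lungs Cdkn2b fell by 2.21 and Cdkn1c by 1.88, Cdkn2d rose by 0.69, and Cdkn1a rose by 0.96 (adjusted p = 0.035), a call that was lost in 7 of 10 fits with 1 lung left out. In WT tumour lungs under rTIMP2 against HBSS, Cdkn1c and Cdkn2b were higher by 1.74 ± 0.58 (adjusted p = 0.048) and 1.68 ± 0.43 (adjusted p = 0.040), calls that were lost in the same 8 of 10 fits.

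CDK inhibitors were also called in the subcutaneous lungs. Cdkn1a was 1185, 2732, 1835, 1425 and 1923 under HBSS, 585, 641, 600.2, 603 and 723 from day 0, and 771, 967, 841 and 909 from day 7. Every treated lung was below every HBSS lung, and Cdkn1a fell by 1.47 ± 0.19 from day 0 (adjusted p = 0.0019) and by 1.01 ± 0.23 from day 7 (adjusted p = 0.029). It was higher from day 7 than from day 0, by 0.47 ± 0.08 (adjusted p = 0.032). With 1 lung left out, the day 0 call was lost in 0 of 10 fits, the day 7 call in 6 of 9 and the call between the days in 7 of 9. Cdkn2b was 412, 362, 359, 373 and 341 under HBSS and 524, 569, 497, 513 and 475 from day 0, a rise of 0.48 ± 0.08 (adjusted p = 0.0018). Rb1, the retinoblastoma protein that holds E2F, rose from day 7 by 0.59 ± 0.08 (adjusted p = 0.0015).

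Of the wider lists, 4 genes were higher and 3 lower of 113 from day 0, where 3.88% and 4.21% of all genes were. From day 7 they were 8 higher and 3 lower of 113, where 4.46% and 5.92% were, so the day 0 counts and the lower calls from day 7 were below the shares of all genes. Besides the inhibitors, the day 0 calls furthest from 0 were Rb1 (0.35) and Fen1 (0.33), the flap endonuclease of lagging-strand synthesis, higher, and E2f6 (-0.38) and Orc2 (-0.29) lower. Those of Rb1, Fen1 and Orc2 were lost in 7, 9 and 8 of 10 fits with 1 lung left out, and that of E2f6 in none. From day 7 Lin9 (0.45), Cenpc1 (0.39) and the inhibitor Cdkn1b (0.21) were also called higher and Anapc11 (-0.20) and Ncaph2 (-0.18) lower, calls lost in 8, 5, 7, 7 and 8 of 9 such fits.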

How the data were processed

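RNA came from mouse lung pieces, per the labels. The submitters' processing notes name Partek, Bowtie2, STAR, DESeq2 and genome build mm10; no source used here gives their versions, order or the strand of counting. The authors deposited normalized counts, which are treated as a normalized signal. Of a library's low values 78.9 to 84.5% were near whole multiples of its most frequent low value, too few to recover reads, so no count model was fitted. For 14 comparisons limma 3.58.1 in R 4.3.3 (eBayes, trend and robust) was fitted on log2(value + 1) to the groups compared, over genes that reached 10 in a number of samples equal to the smaller group. This scale understates changes of low genes. Calls were made at an adjusted p under 0.05 (Benjamini-Hochberg, over every gene of the fit). The code was tested on simulated data. The 43 genes and the lists were chosen with earlier results of these data known. Named were the 3 largest and 3 smallest changes per comparison, all called genes where there were 10 or fewer, role examples, and for the further lists the 3 largest calls each way and called CDK inhibitors; others were chosen after their values were seen. Sample titles gave the groups, since treatment labels of the treated intratracheal mice count upward. Alternatives were a pseudocount of 5, no filter, all groups in 1 fit, quantile normalization, a replicate block, single lungs left out and, chosen after seeing the data, length-class centring.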

Additional observations from a re-analysis of the deposited data

Results flagged for a closer look

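Of 162 values examined within 9 groups, 14 had 1 lung far from the others of its group, where chance alone gives about 1 in 20. WT rTIMP2 replicate 4 was far above the other 4 treated WT lungs in Cdk1 (1086), Ccne2 (555), Pcna (2279) and Rrm2 (697). MT2 rTIMP2 replicate 2 was far below the other 4 in the median over the 43 genes (log2 0.28 over tumour-free lungs), in Cdk1 (62.9), in Ccna2 (126), the cyclin of DNA synthesis and G2, and in Ccne1 (18.7). Among MT2 HBSS lungs, replicate 5 was high in Ccne2 (354), replicate 2 high in Cdt1 (748) and replicate 3 low in Rrm2 (262). WT HBSS replicate 1 was low in Pcna (1514). In the subcutaneous model HBSS replicate 3 was high in Mcm5 (228) and rTIMP2 from day 7 replicate 3 high in Pcna (1037).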

How the results depend on the processing

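Counts are of the 43 genes called by limma. With all groups of a table in 1 fit, 2 were called from day 0 in the subcutaneous model (Cdt1 higher, Ccnd1 lower; 0 in the 2-group fit), 0 from day 7 (1 in the 2-group fit), 1 between MT2 and WT HBSS lungs (Ccnd1, lower; 0 otherwise) and 1 between MT2 rTIMP2 and HBSS lungs (Ccnd1, higher; 0 otherwise). Length-class centring gave 1 from day 0 (Cdt1) and 1 in the interaction of genotype with tumour (Ccnd1), each 0 without it. With single lungs left out, the counts ran from 0 to 1 from day 0, from 0 to 36 between MT2 and WT rTIMP2 lungs, from 0 to 42 in WT rTIMP2 against HBSS, from 0 to 1 in WT rTIMP2 against tumour-free lungs (Ube2c, adjusted p = 0.028 without WT rTIMP2 replicate 5) and from 0 to 1 in the interaction with tumour. They did not move in either HBSS tumour comparison or in MT2 rTIMP2 against tumour-free lungs. Of the log2 values of the single genes followed through every alternative (the 3 largest per comparison and those called), 1 changed sign: Plk1 in MT2 rTIMP2 against HBSS lungs, at -0.61 with all lungs, -0.90 to 0.00039 with single lungs left out, and 0.00039 without MT2 rTIMP2 replicate 2.

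The replicate block took the 36 calls of WT rTIMP2 against HBSS to 0, and those over all genes from 4619 to 0. It moved no other count of the 43. Replicate numbers gave no pairing: in no comparison did every pair of same-numbered lungs correlate above 0.1. Quantile normalization shifted the median of all genes by 0.11 to 0.21 on the log2 scale in 5 comparisons and moved no count by more than 1.5 times. The numbers of lungs and the unknown read counts of the deposited values limit what can be seen in genes near 10.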
